A study of Mus musculus with 12 samples.

Results

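The genes described here encode the enzymes that build purine and pyrimidine nucleotides from small precursors. They were taken by symbol from the deposited table of UMI counts, in which all 10 were found among 22561 genes: Ppat, Gart, Pfas, Paics, Adsl and Atic of the common purine pathway, Impdh2 and Gmps of the guanylate branch, and Cad and Umps of the pyrimidine pathway. All 10 were also among the 9431 genes that passed the filter on low counts. The RNA came from follicular (FO) B cells, sorted from spleens of 10-week-old C57BL6 mice with a gate that included B220hi AA4.1- CD23+ CD21mid. The 12 samples made up 4 groups of 3, in which cells were left unstimulated or were given IFNα, CpG or CpG + IFNα for 12 h. IFNα is a type I interferon, and CpG (ODN1826) is a synthetic DNA oligonucleotide that activates TLR9. No engineered allele is named for any group. The sources used here do not say whether the unstimulated cells were also kept in culture, and stimulation and culture cannot be told apart in comparisons with them. Nor do they say whether replicates came from separate mice, so that p-values measure only the spread between these samples.

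In the purine pathway, the ring is assembled step by step on phosphoribosyl pyrophosphate (PRPP) until inosine monophosphate (IMP) is formed, and IMP is then turned into AMP or GMP. In the pyrimidine pathway, the ring is made first and joined to PRPP afterwards, which gives UMP. Resting lymphocytes cover most of their need by salvage of preformed bases and nucleosides, whereas activated lymphocytes that are to grow and divide depend on the synthesis pathways. The transcription factor MYC is known to bind E-box sequences of several of these genes.

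The samples held 922450 to 2923865 UMI counts each, with the fewest in unstimulated cells (922450 to 1103064) and the most with CpG + IFNα (1884673 to 2923865). Levels are given as CPM normalized by edgeR's TMM method, and thus as shares of the RNA counted and not as amounts per cell. In such bulk samples, fewer cells of a type and less RNA per cell cannot be told apart. UMIs were counted at the 3′ end of transcripts, so counts do not grow with transcript length. The defining markers of the gate were present in unstimulated cells, where Fcer2a, which encodes CD23, averaged 1227 CPM and Cr2, which encodes CD21, averaged 412.5 CPM. Both were lower in the stimulated groups, down to 8.15 and 14.0 CPM with CpG + IFNα. Markers of marginal zone B cells summed to 219.3 to 222.0 CPM in unstimulated cells, where Dtx1 averaged 171.1 CPM, and to 43.0 to 56.3 CPM with CpG. Those of plasma cells summed to 118.7 to 144.7 CPM in unstimulated cells and 54.2 to 80.4 CPM with CpG. Of 5 T cell markers, 3 were in the table and 1 (Cd3d) had any count. Myeloid markers summed to at most 24.6 CPM in any sample, with 5.3 to 24.6 CPM in unstimulated cells and 0.71 to 3.0 CPM with CpG. Markers of plasmacytoid dendritic cells summed to 1.82 to 7.49 CPM in unstimulated cells, 6.42 to 19.6 CPM with CpG and 20.01 to 22.1 CPM with CpG + IFNα. Those with CpG + IFNα were above all unstimulated samples, as were those with IFNα alone (8.39 to 10.1 CPM), and those with CpG overlapped with the unstimulated samples. Of these 3 markers, Cox6a2 averaged 0.36 CPM in unstimulated cells and 18.4 CPM with CpG + IFNα, Ccr9 averaged 4.22 and 2.92 CPM, and Siglech had no count in any sample. The part of these cell types in the results was not tested. Markers of erythroid cells ranged from 1.03 to 271 CPM and overlapped between the groups.

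The promoters of 9 of the 10 genes were found in the RefSeq table for GRCm38.p6, as windows of 250 bases before to 50 bases after the annotated start. Ppat and Paics, whose products act in the same pathway, lie head to head on chromosome 5. In the GENCODE M21 annotation of GRCm38, Ppat runs on the minus strand from 76913249 to 76951578 and Paics on the plus strand from 76951307 to 76967509, so that their 5′ ends overlap by 272 bases. The windows of this pair are printed because of this arrangement, and those of Atic and Impdh2 because, with Paics, they hold the E-box CACGTG, shown in capitals. All 4 are written 5′ to 3′ on the strand of the gene.
Ppat, chr5:76951529-76951828, minus strand: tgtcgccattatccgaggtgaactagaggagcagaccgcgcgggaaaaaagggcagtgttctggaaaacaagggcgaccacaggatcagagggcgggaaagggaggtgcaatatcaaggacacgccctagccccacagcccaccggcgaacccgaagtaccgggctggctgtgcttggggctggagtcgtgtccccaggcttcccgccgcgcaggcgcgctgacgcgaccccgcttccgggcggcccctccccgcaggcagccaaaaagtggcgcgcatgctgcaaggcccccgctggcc
Paics, chr5:76951052-76951351, plus strand: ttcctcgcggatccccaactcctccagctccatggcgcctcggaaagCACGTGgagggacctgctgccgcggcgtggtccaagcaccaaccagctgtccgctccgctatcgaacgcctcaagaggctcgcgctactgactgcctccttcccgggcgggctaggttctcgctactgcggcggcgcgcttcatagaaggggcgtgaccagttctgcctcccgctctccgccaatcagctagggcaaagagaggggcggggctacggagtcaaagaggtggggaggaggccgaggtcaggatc
Atic, chr1:71556906-71557205, plus strand: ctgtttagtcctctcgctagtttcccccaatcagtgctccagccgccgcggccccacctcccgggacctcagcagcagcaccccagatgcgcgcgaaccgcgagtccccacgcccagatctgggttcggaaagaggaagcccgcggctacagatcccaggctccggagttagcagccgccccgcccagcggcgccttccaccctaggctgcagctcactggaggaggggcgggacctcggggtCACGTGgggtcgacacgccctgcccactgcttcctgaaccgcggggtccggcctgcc
Impdh2, chr9:108560186-108560485, plus strand: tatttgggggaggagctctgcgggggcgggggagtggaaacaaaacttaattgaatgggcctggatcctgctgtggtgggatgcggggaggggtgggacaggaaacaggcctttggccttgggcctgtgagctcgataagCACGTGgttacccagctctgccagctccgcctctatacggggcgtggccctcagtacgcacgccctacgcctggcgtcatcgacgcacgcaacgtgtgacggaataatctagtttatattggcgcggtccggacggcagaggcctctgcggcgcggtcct
The E-box was present in 3 of the 9 windows, against 7.15% of 32851 promoter windows in the table. Its first base lay 203 bases before the RefSeq start of Paics, 110 before that of Impdh2 and 7 before that of Atic. In GENCODE M21, Impdh2 starts farther upstream, at 108560286, and its E-box lies after that start. The GC box GGGCGG, searched on both strands like every motif here, was in 9 of 9 windows, against 35.7% of all. The ETS core CCGGAA was in 4 of 9 (Gart, Gmps, Ppat and Umps), against 14.9% of all. The NRF1 motif (GCGC and again GCGC, 2 bases apart) was in 1 of 9, that of Ppat, against 6.23% of all. Neither the CARE sequence TGATGNAA (3.97% of all promoters) nor the core of the interferon-stimulated response element (GAAA and again GAAA, 2 bases apart, 3.44%) was found in these windows. These matches describe letters in the windows and not bound sites.

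Stimulation with CpG raised all 10 genes. Their summed level was 513.2, 466.4 and 531.2 CPM in the 3 samples of unstimulated cells and 2321, 2326 and 2256 CPM with CpG. The sum was thus 503.6 ± 33.5 CPM (SD, n = 3) and 2301 ± 39.1 CPM (SD, n = 3), or 0.0511% and 0.2305% of all counts on average. By edgeR's quasi-likelihood test with Benjamini-Hochberg adjustment over all genes tested, 10 of 10 were higher at an adjusted p under 0.1, against 36.5% of all genes, and 0 were lower, against 38.4%. As DEGs, which also needed a fold change over 2, 10 of 10 were up-regulated, against 20.1% of all genes. In 10 of 10, the lowest sample with CpG was above the highest unstimulated sample, as in 36.1% of all genes. The median log2 fold change was 2.26 over the 10 genes and -0.03 over all 9431 genes.

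**Figure D1:**
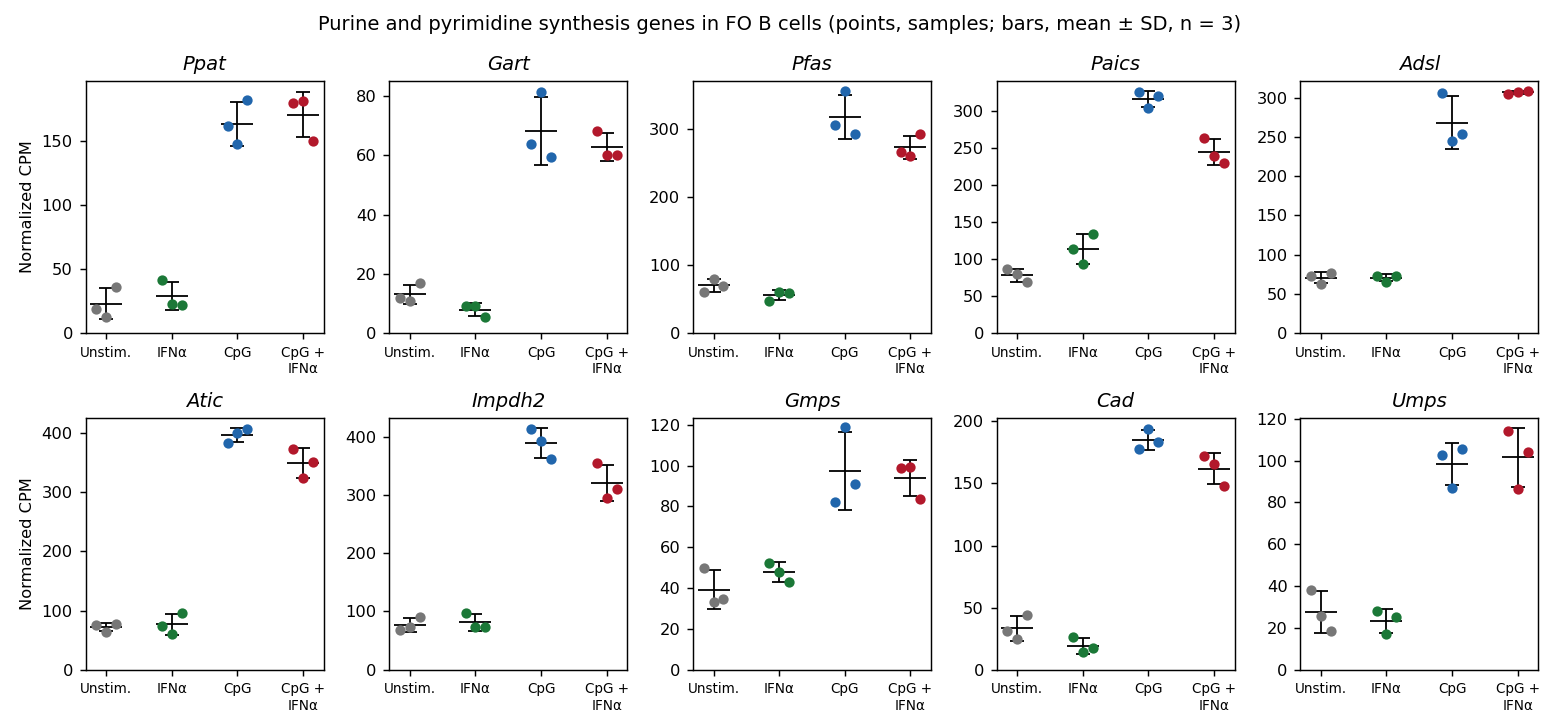
Normalized CPM (linear axis from 0) of the 10 synthesis genes in unstimulated FO B cells and after 12 h with IFNα, CpG or CpG + IFNα. Points are samples and bars show the mean ± SD of 3. In every panel both groups with CpG lie above both groups without it.

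Ppat encodes the amidotransferase of the committed step of purine synthesis, which puts an amino group on PRPP. Its level was 19.1, 12.8 and 36.2 CPM in unstimulated cells and 161.5, 147.5 and 181.7 CPM with CpG. The groups did not overlap, although the unstimulated samples rested on only 21, 12 and 41 counts. The log2 fold change was 2.82 (SE 0.21, adjusted p = 1.38e-13), or 7.04-fold, the largest of the 10 genes.

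Gart (chromosome 16, 91621186 to 91646952, minus strand) encodes a protein with 3 enzyme activities of the pathway, and Pfas (chromosome 11, 68985697 to 69008460, minus strand) encodes the synthase that adds a nitrogen from glutamine. Gart had 11.8, 10.7 and 16.8 CPM in unstimulated cells and 63.9, 81.3 and 59.4 CPM with CpG, a log2 fold change of 2.34 (SE 0.22). Pfas had 61.0, 79.2 and 69.7 CPM in unstimulated cells and 305.1, 355 and 293 CPM with CpG, a log2 fold change of 2.19 (SE 0.13). Gart was the gene with the fewest counts, 10 to 19 per unstimulated sample, and its interval was accordingly wider. An antisense gene with 6 counts over all samples, Gm15964, overlaps 2676 bases of Gart including its 3′ end, and the strand setting of the counting is not given in the sources used here, so that reads in this stretch cannot be assigned with certainty.

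Paics encodes a bifunctional enzyme, a carboxylase and a synthetase, and Adsl (chromosome 15, 80948490 to 80970946, plus strand) encodes the lyase that acts in the common pathway and again on the way to AMP. Paics rose from 78.1 ± 8.85 to 316.6 ± 10.8 CPM (SD, n = 3 each), a log2 fold change of 2.02 (SE 0.13). Adsl rose from 70.6 ± 6.67 to 268.2 ± 33.4 CPM (SD, n = 3 each), a log2 fold change of 1.92 (SE 0.13). A processed pseudogene with 33 counts over all samples, Gm6612, lies inside Adsl on the same strand. Atic (chromosome 1, 71557150 to 71579631, plus strand), whose product adds the last carbon and closes the ring to IMP, had 75.5, 64.2 and 76.8 CPM in unstimulated cells and 383.7, 400.6 and 406.4 CPM with CpG. Its log2 fold change was 2.45 (SE 0.14).

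The 2 genes of the guanylate branch differed in the size of their response. Impdh2 (chromosome 9, 108560286 to 108565584, plus strand) encodes the dehydrogenase that turns IMP into xanthosine monophosphate, the rate-limiting step toward GMP. It had 67.3, 73.8 and 90.0 CPM in unstimulated cells and 412.6, 392.8 and 360.9 CPM with CpG, a log2 fold change of 2.33 with a 95% interval from 2.05 to 2.61. Gmps (chromosome 3, 63976106 to 64022579, plus strand) encodes the synthetase of the next step. It had 50.05, 33.2 and 34.4 CPM in unstimulated cells and 82.3, 119 and 90.9 CPM with CpG. Its log2 fold change of 1.29 (95% interval 0.94 to 1.65, adjusted p = 7.73e-08) was the smallest of the 10 genes, and its interval did not overlap that of Impdh2. Impdh2 shares 48 bases at its 3′ end with Ndufaf3 on the opposite strand, which had 371 counts over all samples, and the same doubt holds for reads in this stretch.

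Cad (chromosome 5, 31054780 to 31078479, plus strand) encodes the large enzyme that opens pyrimidine synthesis, and Umps (chromosome 16, 33954782 to 33967038, minus strand) the enzyme that ends it at UMP. Cad had 30.9, 24.6 and 44.1 CPM in unstimulated cells and 178.1, 193.9 and 183.7 CPM with CpG, a log2 fold change of 2.46 (SE 0.17, adjusted p = 1.14e-14). Umps had 38.2, 25.7 and 18.5 CPM in unstimulated cells and 102.5, 87.0 and 105.8 CPM with CpG, a log2 fold change of 1.84 (SE 0.20). Both pyrimidine genes thus lay within the range of the purine genes.

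The increase was also seen when IFNα was present. With CpG + IFNα, 10 of 10 genes were higher than in unstimulated cells (37.6% of all genes) and 0 were lower (38.8%), all 10 were up-regulated DEGs (20.3% of all genes), and all 10 did not overlap between the groups (36.6% of all genes). Log2 fold changes lay between 1.26 for Gmps and 2.87 for Ppat. Against IFNα alone, 10 of 10 were higher (36.1% of all genes), 0 were lower (39.8%), and 10 of 10 did not overlap (35%). Of these, 9 were DEGs, against 18.7% of all genes, with log2 fold changes between 0.99 for Gmps, just under the limit of 1, and 3.13 for Cad.

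Markers of B cell identity fell in the same samples in which the synthesis genes rose. The 5 B cell markers Cd79a, Cd79b, Ms4a1, Pax5 and Ebf1 summed to between 5515 and 6318 CPM in unstimulated cells and between 1190 and 1355 CPM with CpG, and all 5 had a lower mean with CpG. Cd79a, a part of the B cell receptor, averaged 694.7 CPM in unstimulated cells and 39.7 CPM with CpG, whereas Pax5, a regulator of B cell identity, averaged 680.6 and 439.7 CPM. The share of rRNA and mitochondrial genes also differed, at 6.95% to 8.48% of counts in unstimulated cells and 3.92% to 6.25% with CpG. The part of either in the increase of the synthesis genes was not tested.

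With IFNα alone, without CpG, the summed level was 563.0, 462.7 and 547.2 CPM, 1 sample below and 2 above the range of the unstimulated samples, and the mean was 524.3 ± 53.9 CPM (SD, n = 3) against 503.6 ± 33.5 CPM (SD, n = 3). Of the 10 genes, 1 was higher and 1 was lower, against 12.4% and 11.9% of all genes. The samples did not overlap for 1 gene that was higher (Paics) and 2 that were lower (Gart and Pfas), against 16.4% and 16% of all genes. The median log2 fold change was 0.02 over the 10 genes and -0.001 over all genes.

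Paics was the gene that rose with IFNα. Its level was 86.4, 79.2 and 68.8 CPM in unstimulated cells and 113, 93.6 and 133.5 CPM with IFNα. Each sample with IFNα was above all unstimulated samples, and the log2 fold change was 0.53 (SE 0.15, adjusted p = 0.00892). Ppat, which starts at the same locus on the other strand, had 41.4, 22.5 and 22.1 CPM with IFNα, which overlapped with the unstimulated samples, and its log2 fold change of 0.24 (95% interval -0.33 to 0.81) did not pass the test (adjusted p = 0.618).

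Cad fell with IFNα, from 33.2 ± 9.96 to 19.3 ± 6.30 CPM (SD, n = 3 each). The samples with IFNα had 26.2, 14.0 and 17.6 CPM, and the highest of them was above the lowest unstimulated sample. The log2 fold change was -0.87 (SE 0.24, adjusted p = 0.00825). Without replicate 3 of the unstimulated cells, neither call was made: the log2 fold change was 0.41 for Paics (adjusted p = 0.104) and -0.63 for Cad (adjusted p = 0.118).

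Gart had 9.08, 9.12 and 5.34 CPM with IFNα, below each of the unstimulated samples, on 7 to 15 counts per sample. Its log2 fold change of -0.75 (95% interval -1.43 to -0.07) did not pass the test after adjustment (adjusted p = 0.121). The other 7 genes had log2 fold changes between -0.31 for Pfas and 0.27 for Gmps, none of which passed. The widest of their 95% intervals, those of Ppat and Umps, still allowed changes up to 0.81 and down to -0.79.

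Adding IFNα to CpG moved the synthesis genes little. Their summed level was 2196, 2018 and 2040 CPM with CpG + IFNα, below each of the 3 samples with CpG alone, and the mean was 2085 ± 97.0 CPM (SD, n = 3). In 5 of 10 genes (Pfas, Paics, Atic, Impdh2 and Cad) the samples with CpG + IFNα were all below those with CpG, which was the case for 16.7% of all genes. Only 1 gene, Paics, was lower at an adjusted p under 0.1 (8.83% of all genes) and 0 were higher (6.54%). The median log2 fold change was -0.15 over the 10 genes and -0.04 over all genes.

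Paics had 324.8, 304.4 and 320.5 CPM with CpG and 264, 238.4 and 230.2 CPM with CpG + IFNα. The groups did not overlap, and the log2 fold change was -0.38 (SE 0.11, adjusted p = 0.0236). Without the filter on low counts, the adjusted p was 0.13. Impdh2 came next, with 354.6, 295.3 and 310.4 CPM with CpG + IFNα and a log2 fold change of -0.28 (95% interval -0.51 to -0.05, adjusted p = 0.111). Adsl, at 304.4, 307.4 and 308.4 CPM with CpG + IFNα, had the highest value, a log2 fold change of 0.19 (95% interval -0.02 to 0.41, adjusted p = 0.277). The intervals of the 9 genes that did not pass lay between -0.51 and 0.41.

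The change of Paics with IFNα therefore had opposite signs without and with CpG, and this difference was tested as an interaction. Each interaction given here includes the comparison of IFNα with unstimulated cells, in which stimulation and culture cannot be told apart. The interaction subtracts the log2 fold change by IFNα in cells without CpG from that in cells with CpG, and was -0.91 for Paics (SE 0.19, adjusted p = 0.00118). It made 1 of 10 genes lower (7.58% of all genes) and 0 higher (5.84%). Cad had the largest positive value, 0.68 (95% interval 0.13 to 1.22, adjusted p = 0.116), and Gart followed at 0.64 (95% interval -0.10 to 1.38, adjusted p = 0.307). The median was -0.04 over the 10 genes and -0.05 over all genes.

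**Figure D2:**
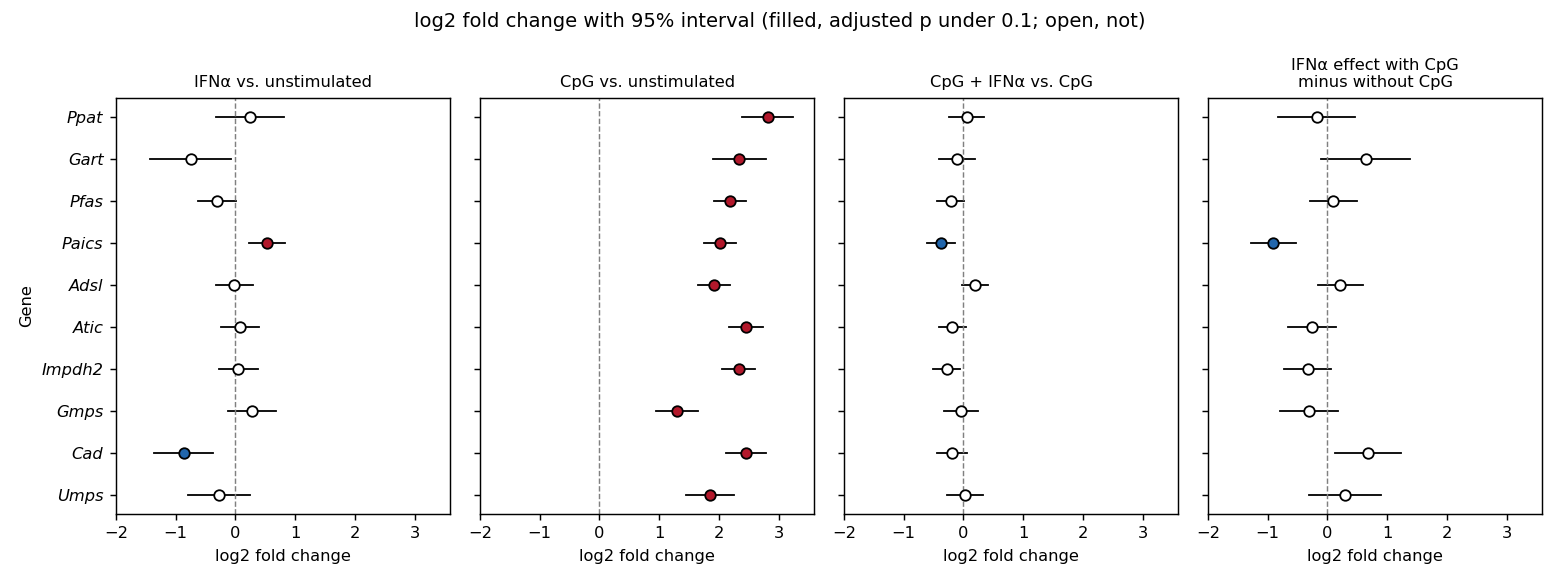
Log2 fold changes of the 10 synthesis genes (horizontal axis, the same in each panel) with 95% intervals, for IFNα and CpG against unstimulated cells, for CpG + IFNα against CpG, and for the interaction. Filled points had an adjusted p under 0.1 (red higher, blue lower), which holds for all 10 genes in the CpG panel, for Paics and Cad in the IFNα panel, and for Paics in the last 2 panels.

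The 10 genes separated the samples in the same way. Over all 12 samples, the Pearson correlation of log2 CPM between pairs of these genes had a median of 0.95 over 45 pairs, which describes the gap between samples with and without CpG. Within the 6 samples without CpG the median was 0.16, with a range from -0.94 to 0.84, and within the 6 samples with CpG it was also 0.16, from -0.77 to 0.90. The points share the libraries and their depth. The genes outside the lists of nucleotide genes used here whose log2 CPM was most like the mean of the 10 over the 12 samples were Cct6a (r = 0.998) and Tcp1 (r = 0.997), which encode subunits of the chaperonin CCT, followed by Hdgf, Kpnb1 and Ybx3. Within the 6 samples without CpG, r was 0.92 for Cct6a and 0.82 for Tcp1, and within those with CpG it was 0.40 and 0.71. For single genes, the closest outside these lists were Ddx56 for Ppat, Dis3 for Gart, Bcl2a1d for Pfas, Elob for Paics, Mif for Adsl, Mtap for Atic, Nhp2 for Impdh2, A630089N07Rik for Gmps, Bysl for Cad and Azin1 for Umps, with r between 0.978 and 0.998. Their r was 0.767 (Mif) to 0.987 (Dis3) within the 6 samples without CpG, and 0.075 (Bysl) to 0.844 (Mif) within those with CpG. Mtap, which was not on the lists, encodes an enzyme that releases adenine for salvage.

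The pathways that feed the synthesis enzymes or use their products were taken from lists chosen by function. Enzymes that load folate with one-carbon units, which Gart and Atic use, rose together with CpG: 5 of the 5 genes tested were higher, against 36.5% of all genes, with a median log2 fold change of 2.56. The mitochondrial enzyme Mthfd2 rose from 23.4 ± 5.03 to 246.4 ± 20.9 CPM (SD, n = 3 each), a log2 fold change of 3.38 (SE 0.18), Shmt2, which takes the carbon from serine, rose by 2.73, and Mthfd1 by 2.47 on the log2 scale. With IFNα alone 2 of the 5 were higher, against 12.4% of all genes, Mthfd2 by 1.30 (adjusted p = 1.49e-05) and Shmt2 by 0.54 (adjusted p = 0.0123). The interaction of Mthfd2 was -1.05 (SE 0.24, adjusted p = 0.00441).

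Among 7 genes tested for PRPP supply, the adenylate branch and the IMP dehydrogenase Impdh1, 3 were higher with CpG and 0 were lower, against 36.5% and 38.4% of all genes. The higher ones were Prps1 (log2 fold change 1.78), a PRPP synthetase, Adss (1.39), which leads from IMP toward AMP, and Impdh1 (0.68), the paralog of Impdh2 on the guanylate branch. Prps2, another PRPP synthetase, had a log2 fold change of -0.28 (adjusted p = 0.111). With IFNα alone, 3 of the 7 were lower, against 11.9% of all genes. These were Prps2 (-0.53, adjusted p = 0.0213, called in 18 of 20 alternatives) and Prpsap1 (-0.45, adjusted p = 0.0375, 17 of 20). The third was Impdh1 (-0.50, adjusted p = 0.0942), a call made in only 5 of 20 alternatives. The interaction of Impdh1 was 0.92 (adjusted p = 0.0158, or 0.71 and 0.241 with counts drawn down). Impdh1 was higher with CpG + IFNα than with CpG (0.42, adjusted p = 0.0453), but this call was lost without replicate 2 (adjusted p = 0.196) or 3 (0.153) of CpG or replicate 2 of CpG + IFNα (0.148), with counts drawn down (0.466) and by DESeq2 (0.166).

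Of the 8 genes tested on a list of Dhodh and the genes that lead from UMP and from the monophosphates to triphosphates, 6 were higher and 2 were lower with CpG, against 36.5% and 38.4% of all genes. Ctps, the synthase that makes CTP from UTP, had 16.4, 19.3 and 18.5 CPM in unstimulated cells and 157.8, 149.7 and 137.3 CPM with CpG, a log2 fold change of 3.03. Its paralog Ctps2 went the other way, with a log2 fold change of -1.74. The nucleoside diphosphate kinase gene Nme1 rose by 2.50 and Dhodh, which encodes the mitochondrial step of pyrimidine synthesis between Cad and Umps, by 0.81 on the log2 scale (adjusted p = 0.00194). With IFNα alone, Ctps fell by 0.94 and Nme1 by 0.53 on the log2 scale, and the call of Ctps was lost with counts drawn down (adjusted p = 0.112).

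Genes for making deoxynucleotides, the building blocks of DNA, were higher with CpG in 7 of 8 cases, against 36.5% of all genes. The exception was Rrm2b, a subunit of ribonucleotide reductase that p53 controls, at -0.67 (-0.45 and adjusted p = 0.106 without replicate 3 of CpG). Tyms, the thymidylate synthase, rose from 3.40 ± 1.16 to 74.6 ± 8.93 CPM (SD, n = 3 each), a log2 fold change of 4.40, from 2 to 5 counts per unstimulated sample. The ratio of summed counts per effective total was 21.8 for Tyms (95% counting interval 12.0 to 44.0) and 18.4 for the dCMP deaminase Dctd (10.1 to 37.1), both with at most 5 counts per unstimulated sample. Dut, the dUTPase, rose by 2.10 and Rrm2, the reductase subunit that peaks in S phase, by 2.18 on the log2 scale. With CpG + IFNα, 5 of the 8 were lower than with CpG, against 8.83% of all genes, among them Rrm2 (-0.59), Rrm1 (-0.40), Dut (-0.39) and Dtymk (-0.33). This count depended on single samples, since it was 0 without replicate 3 of CpG or without replicate 2 of CpG + IFNα, 2 without replicate 1 of CpG + IFNα, 3 without replicate 3 of the unstimulated cells, and 0 by DESeq2.

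**Figure D3:**
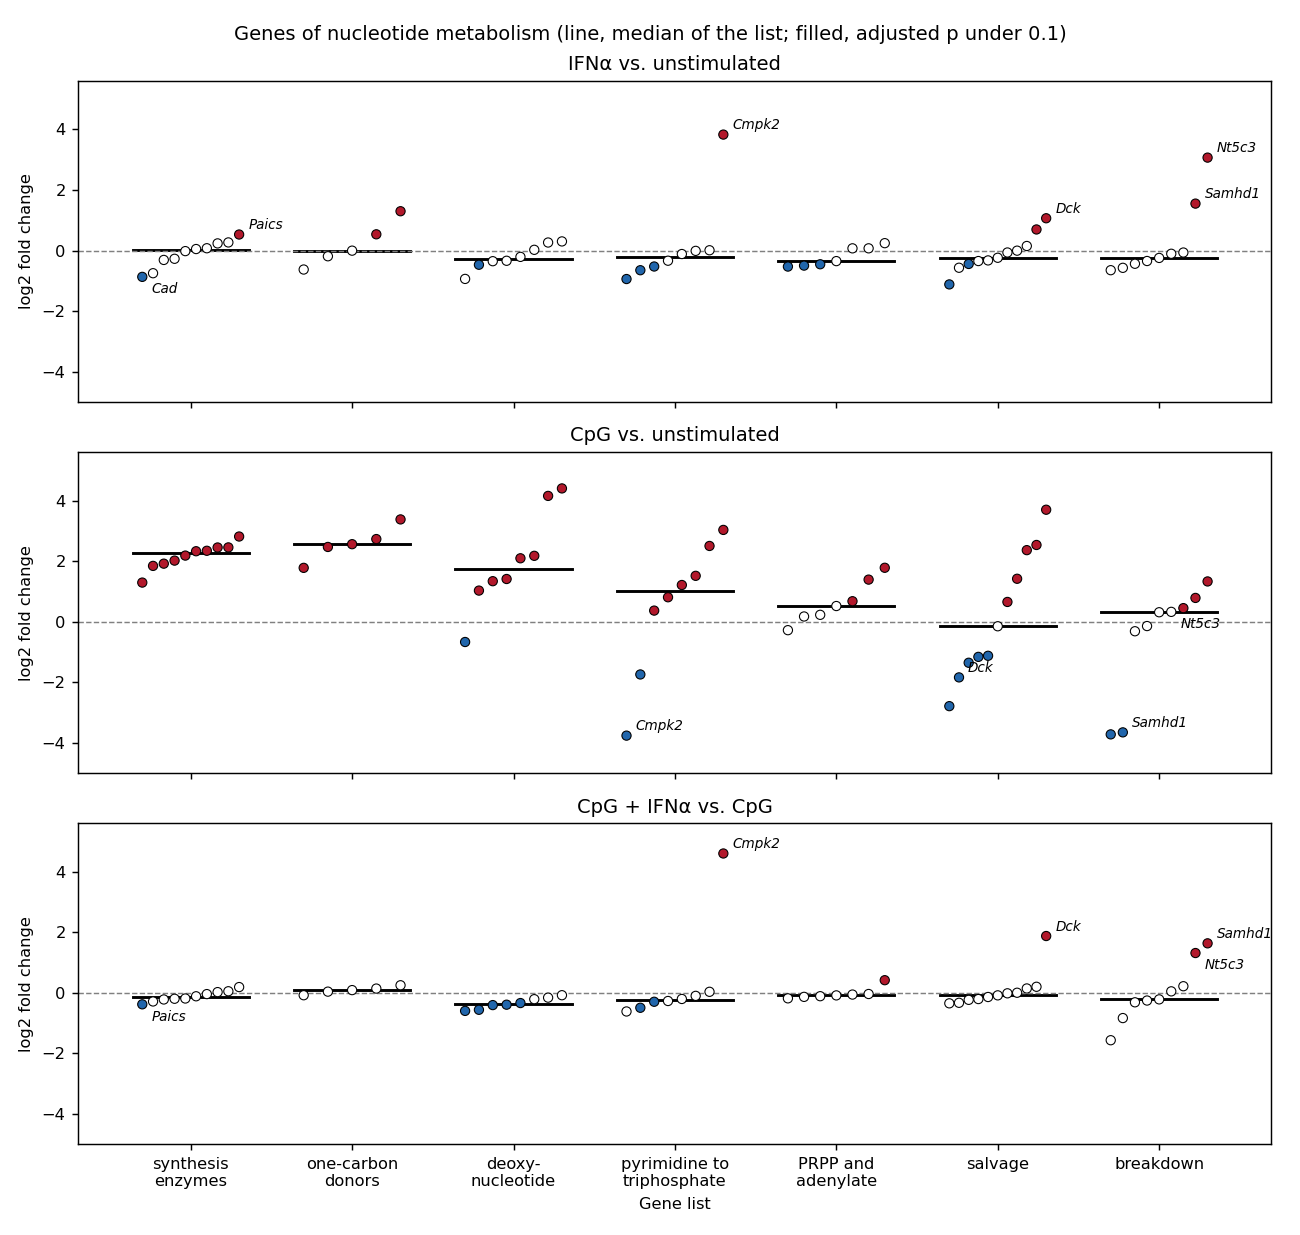
Log2 fold changes of the synthesis genes and of 6 other lists of nucleotide metabolism in 3 comparisons. Each point is a gene, filled where the adjusted p was under 0.1 (red higher, blue lower), and lines are list medians. The list named PRPP and adenylate includes Impdh1, and that named pyrimidine to triphosphate includes Dhodh. With CpG, the lines of the synthesis enzymes and the one-carbon donors lie highest, at 2.26 and 2.56, and the single genes labelled Cmpk2, Nt5c3, Samhd1 and Dck had log2 fold changes of 3.83, 3.07, 1.55 and 1.07 with IFNα.

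Of 11 salvage genes tested, 5 were higher and 5 were lower with CpG, against 36.5% and 38.4% of all genes. The uridine-cytidine kinase gene Uck2 had 14.6, 9.63 and 20.3 CPM in unstimulated cells and 204.5, 186.8 and 200.7 CPM with CpG, a log2 fold change of 3.70, whose 95% interval (3.33 to 4.07) lay above that of every synthesis gene. Aprt, which salvages adenine, rose by 2.54, Adk by 2.37 and Hprt, which salvages hypoxanthine and guanine, by 1.42 on the log2 scale. The mitochondrial thymidine kinase gene Tk2 fell by 2.79 and Dck, the deoxycytidine kinase, by 1.84 on the log2 scale.

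Of 9 breakdown genes tested, 3 were higher and 2 were lower with CpG, against 36.5% and 38.4% of all genes. Samhd1, which hydrolyses deoxynucleoside triphosphates, had 503.2, 579.7 and 503.9 CPM in unstimulated cells and 45.4, 39.2 and 40.9 CPM with CpG, a log2 fold change of -3.65 (SE 0.13, adjusted p = 1.84e-21). The AMP deaminase genes went apart, Ampd2 with a log2 fold change of 1.33 and Ampd3 with 28 counts over the unstimulated samples against 1 count in each sample with CpG, a ratio of 14.8 (95% counting interval 4.58 to 76.3).

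Some of these surrounding genes had large changes with IFNα. The salvage gene Tk1 was lower with IFNα alone (log2 fold change -1.12, adjusted p = 0.0171), a call made in 19 of 20 alternatives. Cmpk2, a mitochondrial nucleotide kinase gene that interferon is known to induce, had 20.02, 13.9 and 24.7 CPM in unstimulated cells and 308.8, 249.3 and 296.1 CPM with IFNα, a log2 fold change of 3.83 (adjusted p = 6.27e-19). With CpG alone it had 1 to 4 counts per sample and with CpG + IFNα 34.4, 34.8 and 38.0 CPM, a ratio of summed counts of 25.6 (95% counting interval 12.3 to 64.5). Samhd1 rose with IFNα by 1.55 without CpG and by 1.64 with CpG on the log2 scale, and its interaction was 0.09 (95% interval -0.26 to 0.43). Dck rose by 1.07 and 1.88 in the same comparisons. Nt5c3, a pyrimidine nucleotidase gene, rose by 3.07 without CpG and by 1.32 with CpG, an interaction of -1.75 (SE 0.23, adjusted p = 1.83e-06).

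**Figure D4:**
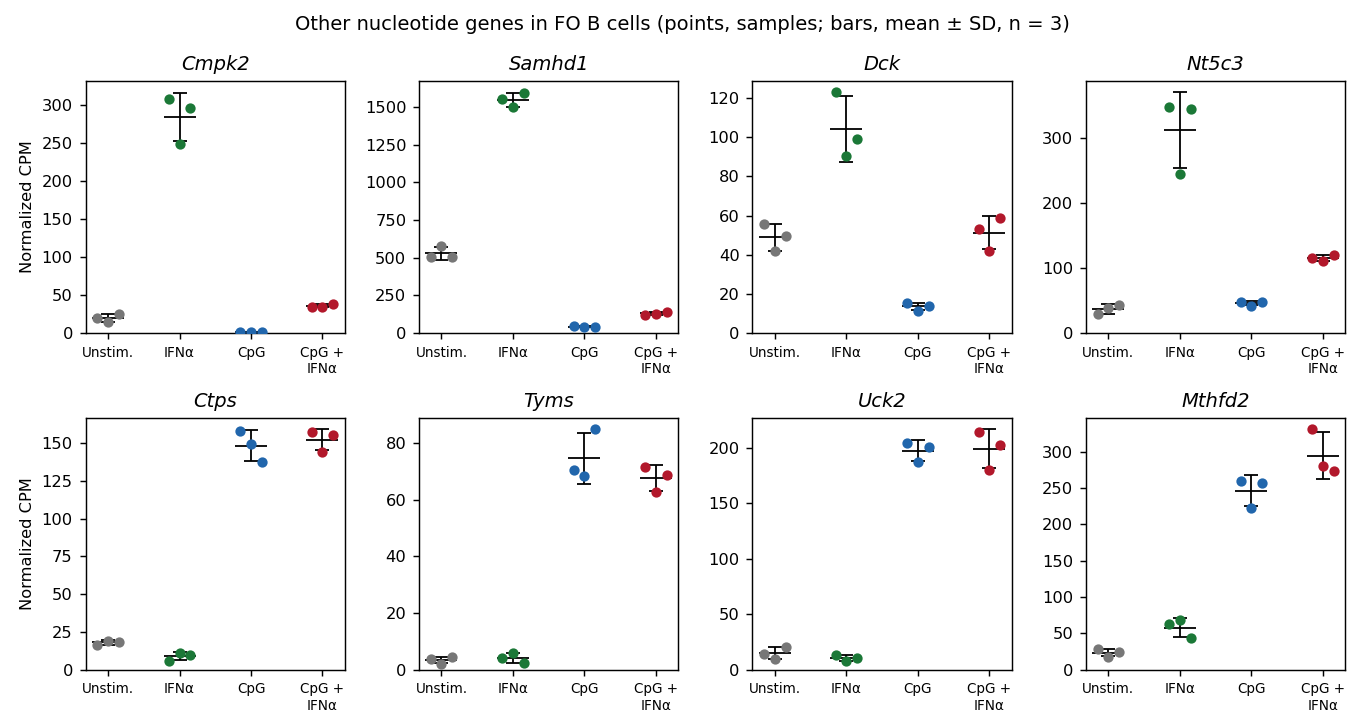
Normalized CPM (linear axis from 0) of 8 other nucleotide genes by sample, with mean ± SD of 3. The upper row holds genes that IFNα raised both without and with CpG, of which Cmpk2, Samhd1 and Dck were lowest with CpG alone. The lower row holds Ctps, Tyms, Uck2 and Mthfd2, which were higher in both groups with CpG.

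Of 6 regulators tested, Myc had the largest change with CpG, from 178.6 ± 41.8 to 567.5 ± 45.2 CPM (SD, n = 3 each), a log2 fold change of 1.66 (SE 0.14, adjusted p = 2.94e-12). With IFNα alone, Myc was lower than in unstimulated cells, at 38.0 ± 10.9 CPM (SD, n = 3), a log2 fold change of -2.28 (SE 0.18, adjusted p = 4.69e-12). Stimulation and culture cannot be told apart in this comparison. With CpG + IFNα, Myc had 708.7 ± 55.9 CPM (SD, n = 3), a difference from CpG that did not pass the test (0.32, 95% interval 0.06 to 0.58, adjusted p = 0.101), and its interaction was 2.60 (SE 0.22). Max, the partner of MYC, and Atf4, a regulator of amino acid and one-carbon genes, rose with CpG by 0.43 and 0.39, and again when IFNα was added to CpG, by 0.40 and 0.46 on the log2 scale. With IFNα alone, Max had a log2 fold change of 0.43 (adjusted p = 0.0256; 0.109 without replicate 3 of IFNα and 0.11 with counts drawn down). That of Atf4 was -0.36 (adjusted p = 0.0168; -0.29 and 0.12 without replicate 1 of the unstimulated samples), and its interaction was 0.82 (adjusted p = 0.000329). For Max, the call against CpG was lost without replicate 1 of CpG (0.32, adjusted p = 0.144) and with counts drawn down (0.22, adjusted p = 0.514). Mtor had a log2 fold change of 0.10 with CpG (95% interval -0.32 to 0.53, adjusted p = 0.665).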

How the data were processed

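RNA of sorted FO B cells was measured by bulk RNA barcoding (BRB) sequencing in 12 samples. The deposited values are UMI counts per gene, which the authors did not normalize and made with UMI-tools 1.1.2, Trim Galore 0.6.7, HISAT2 2.2.1 on GRCm38 and featureCounts 2.0.1. The strand setting and the release of the annotation are not given in the sources used here, but all 22561 identifiers are in GENCODE M21, which gave positions. No row lacked a gene name.

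With edgeR 4.0.16 (R 4.3.3), low genes were removed by filterByExpr with the 4 groups, TMM factors were set and all 12 samples were fitted at once (glmQLFit, glmQLFTest, 8 residual degrees of freedom), and p-values were adjusted by the Benjamini-Hochberg method over 9431 genes. Genes were called at an adjusted p under 0.1, and DEGs also had a log2 fold change over 1 in size. The study used DESeq2, which is an alternative here (1.42.0). SEs and 95% intervals of log2 fold changes were derived from the F statistics. UMIs remove PCR duplicates, and counting intervals cover counting error only. The fit was checked on simulated counts with known changes.

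The synthesis genes and all lists were chosen with earlier results of these data known. Named genes were the 10 synthesis genes, up to 3 genes per list with the smallest p in CpG against unstimulated and up to 3 in CpG + IFNα against CpG, and those with the most similar profile. A few items of these lists are not reported here. Other list genes, including all those named for IFNα alone, were named after their values were seen. Alternatives were other normalizations, filters, thresholds and tools, fewer groups in the fit, counts drawn down to the smallest total, removal of rRNA and mitochondrial genes, a block for the replicate number, and the removal of single samples. Replicates differed by more than counting noise in all 12 pairs (chi-square per degree of freedom 1.90 to 6.31).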

Additional observations from a re-analysis of the deposited data

Results flagged for a closer look

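The effect of IFNα on Paics differed between cells without and with CpG by the interaction test (-0.91 on the log2 scale, SE 0.19, adjusted p = 0.00118 by edgeR's quasi-likelihood test). Without CpG, the 3 samples with IFNα (93.6 to 133.5 CPM) lay above the 3 unstimulated samples (68.8 to 86.4 CPM). With CpG, the 3 samples with IFNα (230.2 to 264 CPM) lay below the 3 without it (304.4 to 324.8 CPM). The call was made under all 19 alternatives run, with values from -1.05 to -0.75 and adjusted p from 0.000119 to 0.0212. All of these alternatives include the unstimulated cells, and in comparisons with them stimulation and culture cannot be told apart. The cause was not tested.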

How the results depend on the processing

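The comparisons of CpG or CpG + IFNα with groups without CpG kept their calls: in each, all 200 values of the 10 members over 20 alternatives stayed higher, with log2 fold changes from 0.86 to 3.41 and adjusted p of at most 0.000551. When DEGs needed a log2 fold change over 2, 6 members were DEGs with CpG + IFNα against unstimulated cells. With CpG alone, Adsl (1.919), Umps (1.845) and Gmps (1.294) were under this limit. Impdh2 (1.998), Paics (1.113) and Gmps (0.987) were under it in CpG + IFNα against IFNα. With library sizes only, 3 members (Cad, Gart and Pfas) were lower with IFNα, 2 (Paics and Impdh2) were lower in CpG + IFNα against CpG, and 1 member (Cad) was higher in the interaction, as it also was (1) without rRNA and mitochondrial genes. In CpG + IFNα against CpG, 0 members were lower without the filter on low counts, and 2 were lower with only the groups compared. With each sample left out in turn, 0 to 1 members were higher and 0 to 1 lower with IFNα, 0 to 1 were DEGs there, 1 to 2 were lower in CpG + IFNα against CpG, 0 to 1 were higher in the interaction, and 0 to 1 were DEGs in it. The causes were not tested.

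Values of members that did not pass the test changed sign. These were Adsl with IFNα (0.034 with counts drawn down), Atic (-0.007) and Impdh2 (-0.036) with IFNα under library sizes only, and Gmps in CpG + IFNα against CpG (0.024 without the filter). Leaving out samples gave ranges that crossed 0 with IFNα for Ppat (-0.052 to 0.726), Adsl (-0.083 to 0.047), Atic (-0.111 to 0.25), Impdh2 (-0.079 to 0.154) and Umps (-0.537 to 0.064). The same held in CpG + IFNα against CpG for Ppat (-0.015 to 0.14), Gart (-0.208 to 0.02), Gmps (-0.143 to 0.114) and Umps (-0.061 to 0.143), and in the interaction for Ppat (-0.629 to 0.104), Pfas (-0.003 to 0.18) and Umps (-0.039 to 0.606).

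The labels do not say that replicate numbers mark a shared source, and not every same-numbered pair had a correlation over 0.1. Deviations of same-numbered samples correlated at -0.07 to 0.20, with 5 of 18 pairs over 0.1, against 0 of 36 pairs with different numbers. Same-numbered samples of CpG and CpG + IFNα correlated at 0.15, 0.15 and 0.06, and same-numbered pairs with an unstimulated sample at -0.07 to 0.05. As a hint from the data, 10 of 12 samples correlated best with their own number. With the replicate block, 2 members (Paics and Impdh2) were lower in CpG + IFNα against CpG in place of 1.

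Over all genes, library sizes only moved the share of higher calls with IFNα from 51.1% to 38.4% and in the interaction from 43.5% to 55.4%, and removal of rRNA and mitochondrial genes moved the latter to 55.0%. For all genes lower in CpG + IFNα against CpG, 833 became 528 without the filter, 451 by DESeq2 and 476 with counts drawn down, 522 without replicate 3 of CpG and 502 without replicate 2 of CpG + IFNα, and for those higher 617 became 401 with counts drawn down. For all genes lower in the interaction, 715 became 454 without the filter, 373 by DESeq2, 394 with counts drawn down, 460 at an adjusted p under 0.05 and 414 without replicate 3 of the unstimulated cells, and 551 that were higher became 282 with counts drawn down. With IFNα, all genes lower went from 1122 to 727 with counts drawn down. Depth limits Gart, Ppat, Cad and Umps in the groups without CpG, where 7 to 50 counts per sample were available.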
